A study of Mus musculus with 6 samples.

Results

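The Gadd45 genes Gadd45a, Gadd45b and Gadd45g are 3 paralogs, and their transcripts were followed in RAW264.7 cells, a mouse macrophage-like line from a tumour induced by Abelson leukaemia virus. They are 3 of the 25124 gene symbols in the deposited table, were found by symbol, and were picked because their levels differed between the groups in opposite directions. That difference is therefore given as a description, with no test. The libraries were 3 labelled E4BP4 knockout and 3 labelled control, all from cells of this line for which the labels give no treatment. E4BP4 is the bZIP factor encoded by Nfil3, a repressor in most settings, which recognises D-box elements. The sources used here do not give the method of the knockout, whether 1 clone or a pool was used, or whether a group's libraries came from separate cultures. The p-values therefore speak only of the scatter among these 6 libraries, some of which may be technical.

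Gadd45 proteins are small acidic proteins without known enzyme activity that act by binding others. They activate the kinase MTK1 (Map3k4) upstream of p38 and JNK, bind the Cdk1 and cyclin B1 complex and the replication clamp PCNA, and have been linked to DNA repair and active DNA demethylation. Gadd45a is the paralog classically induced by p53 after DNA damage and by ATF4 during amino acid or endoplasmic reticulum stress. Gadd45b is induced by NF-κB, by TGF-β and during myeloid differentiation, and Gadd45g by cytokines.

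Levels are in TPM, reads per transcript length on a scale common to all libraries, so they can be compared between genes. Depth was similar, with 15615639 to 19867733 whole reads per library recovered from the TPM values. Nfil3 itself, the knockout's target, stood at 29.5, 29.9 and 31.0 TPM in the controls and higher, at 105, 104 and 99.8 TPM, under the knockout label. Its level thus does not by itself show the loss named in that label, on which every direction given here rests. A gene-level value does not show whether the protein was lost. All 10 macrophage markers reached 1 TPM in at least 1 library, with Adgre1 at only 1.53 and 2.73 TPM on average under the knockout and control labels. Of 9 tested macrophage markers 3 were higher and 5 lower under the knockout label in limma, where 26.7% and 23.4% of all genes tested were. The median log2 fold change of these markers was −0.17. Their summed level, of which Lyz2 made up the most (2218 TPM on average under the knockout label and 1069 TPM in the controls), was 4307 to 4452 TPM under the knockout label and 3145 to 3402 TPM in the controls, and their part in the results was not tested. None of 16 markers of T, B, NK, epithelial, endothelial, fibroblast or liver cells reached 1 TPM, and Cd3g and Krt8 were among those at 0 in all 6 libraries. The summed level of these 16 was 0.529 to 0.898 TPM under the knockout label and 0.751 to 1.06 TPM in the controls.

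The sequences just before the 3 transcription starts are shown because they carry what the paralogs share and what sets them apart at the place where a transcription factor could act. Each is the 250 bases upstream of the start in RefSeq (build GRCm38.p6, the same assembly as mm10), written 5′ to 3′ along the gene, with capitals for the octamer ATGCAAAT, the CCAAT box, the TATA box TATAAA, the GC box GGGCGG and the E-box CACGTG on either strand. They lie at chr6:67037408-67037657 on the minus strand for Gadd45a, and on the plus strand at chr10:80929841-80930090 for Gadd45b and at chr13:51846425-51846674 for Gadd45g.
Gadd45a: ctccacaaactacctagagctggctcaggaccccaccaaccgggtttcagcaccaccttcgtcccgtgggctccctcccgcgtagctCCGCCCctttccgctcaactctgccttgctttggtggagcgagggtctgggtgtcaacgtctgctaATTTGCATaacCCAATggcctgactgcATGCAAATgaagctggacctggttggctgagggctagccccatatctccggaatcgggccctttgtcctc
Gadd45b: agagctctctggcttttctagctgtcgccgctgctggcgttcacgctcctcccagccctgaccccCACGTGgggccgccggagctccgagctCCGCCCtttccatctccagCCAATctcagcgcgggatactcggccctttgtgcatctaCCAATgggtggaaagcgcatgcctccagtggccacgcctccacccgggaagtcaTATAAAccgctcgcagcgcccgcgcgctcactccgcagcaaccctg
Gadd45g: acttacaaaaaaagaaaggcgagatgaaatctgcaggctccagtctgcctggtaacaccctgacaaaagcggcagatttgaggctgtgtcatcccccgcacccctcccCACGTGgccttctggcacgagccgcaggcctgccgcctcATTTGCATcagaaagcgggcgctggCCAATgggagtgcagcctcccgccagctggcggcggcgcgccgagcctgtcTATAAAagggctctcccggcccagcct

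Neither of the exact forms searched of the E4BP4 binding element, TTATGTAA or TTACGTAA, matched in any of the 3 windows on either strand. Across 32851 RefSeq windows of the same length these letters were found in 0.819% and 0.113%. Looser forms of the element were not searched. The octamer, the binding letters of Oct factors, matched at bases −97 to −90 and −70 to −63 of Gadd45a and at bases −103 to −96 of Gadd45g, while 1.60% of all windows held it and Gadd45b did not. Thus the paralog that was higher and 1 of those that were lower under the knockout label share this element. The CCAAT box was in all 3 windows, against 33.8% of all windows. TATAAA was in those of Gadd45b (from base −46) and Gadd45g (from base −27) but not of Gadd45a, against 12.4% of all windows. An E-box stood in the same 2 genes, at bases −185 to −180 of Gadd45b and −142 to −137 of Gadd45g, against 6.02% of all windows. GGGCGG matched in Gadd45a and Gadd45b, against 32.7% of all windows.

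Of elements for stress and inflammatory factors, the ATF4 composite letters TGATGNAA matched in Gadd45g alone, at bases −101 to −94, overlapping its octamer, while 3.45% of all windows held them. A loose κB pattern (GGG and CC with 5 free bases between), found in 45.8% of all windows, matched 3 times in Gadd45a and 3 times in Gadd45g when strands were counted separately, with overlapping matches, and not in Gadd45b. The full cyclic AMP element TGACGTCA and the AP-1 letters TGANTCA matched in none of the 3, against 1.55% and 6.75% of all windows. A match is only a run of letters, and these windows hold no introns or distant elements. The windows were richer in G and C than most, at 59.2%, 65.2% and 62.0% for Gadd45a, Gadd45b and Gadd45g against a median of 52.4%.

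The 3 genes have the same layout. In GENCODE M21 each has 4 exons, all of them partly coding, with coding sequences of 495, 480 and 477 bases before the stop codon for Gadd45a, Gadd45b and Gadd45g. Aligned coding bases were 62.8% identical between Gadd45a and Gadd45b, 67.5% between Gadd45a and Gadd45g and 69.2% between Gadd45b and Gadd45g. The longest identical run in these alignments was 17 bases, between Gadd45a and Gadd45g.

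Gadd45a was the member that was higher under the knockout label. Its transcript NM_007836 spans 67035096 to 67037407 on the minus strand of chromosome 6 in mm10. The controls held 8.92, 9.05 and 10.3 TPM of it, and the libraries labelled knockout held 78.9, 81.7 and 68.0 TPM. The groups did not overlap, and the lowest library labelled knockout was far above the highest control. Mean levels of 76.2 ± 7.27 and 9.42 ± 0.756 TPM (SD, n = 3 each) put the ratio at 8.09. The difference on log2(TPM + 1) was 2.89, the rank 5 difference from the top among 11257 genes tested. The values rested on 1482, 1674 and 1348 recovered reads under the knockout label against 171, 167 and 166 in the controls. Among the tested genes its mean level stood at percentile 34.9 in the controls and at percentile 87.4 under the knockout label.

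Gadd45b was lower under the knockout label. Its transcript NM_008655 spans 80930091 to 80932204 on the plus strand of chromosome 10. It measured 10.6, 11.1 and 10.6 TPM under the knockout label and 20.8, 22.6 and 21.0 TPM in the controls. The groups again did not overlap, and of the 3 members Gadd45b varied least within a group, with a coefficient of variation of 2.93% and 4.59% under the knockout and control labels. The means of 10.8 ± 0.316 and 21.5 ± 0.987 TPM (SD, n = 3 each) gave a ratio of 0.501. The difference on log2(TPM + 1) was −0.93, rank 172 from the bottom.

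Gadd45g, on the plus strand of chromosome 13 from 51846675 to 51848474 (NM_011817), was lower as well and was the least abundant member under the knockout label. It measured 2.72, 2.21 and 2.29 TPM under that label and 9.05, 7.19 and 9.28 TPM in the controls. The groups did not overlap. These levels rested on only 45, 40 and 40 recovered reads against 153, 117 and 132. For the highest library labelled knockout, the exact 95% Poisson interval, which covers counting error only, was 1.98 to 3.64 TPM, and for the lowest control it was 5.95 to 8.62 TPM. Mean levels were 2.41 ± 0.272 against 8.51 ± 1.15 TPM (SD, n = 3 each). Their ratio was 0.283, and the difference on log2(TPM + 1) was −1.48, rank 43 from the bottom. Across the 11257 genes tested, the groups did not overlap for 58.5%, of which 31.3 points were higher and 27.2 points lower under the knockout label, and since the members were picked on this contrast nothing is read from their own lack of overlap.

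**Figure D1:**
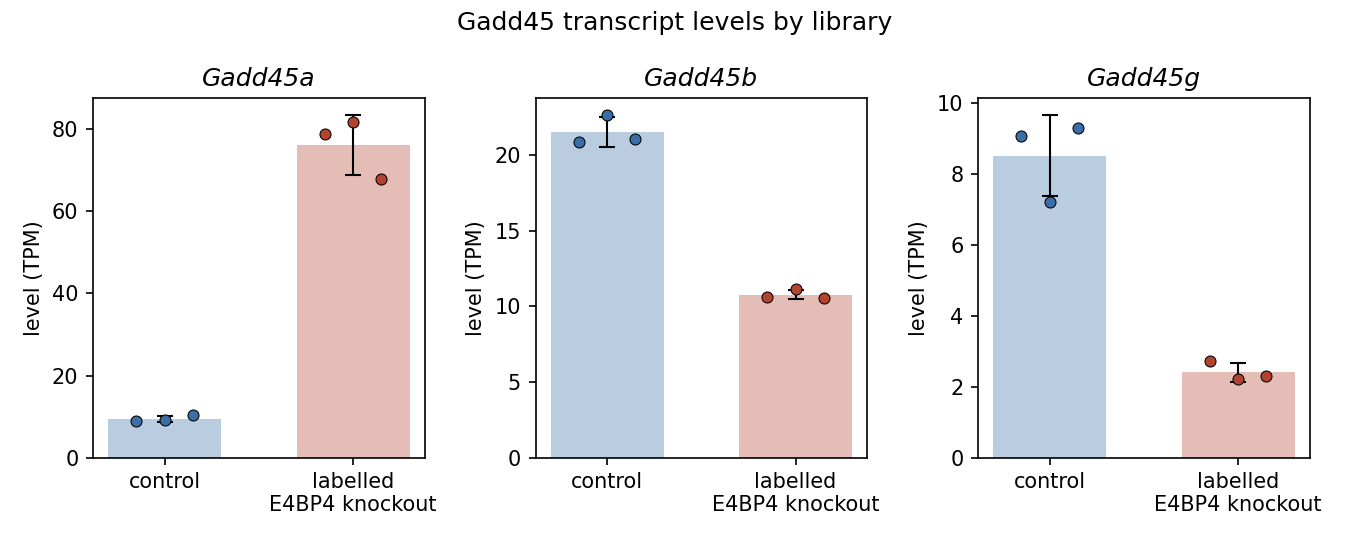
Level in TPM (vertical axes, from 0, a scale for each gene) of Gadd45a, Gadd45b and Gadd45g in the 3 control libraries (blue) and the 3 labelled E4BP4 knockout (red). Points are libraries, bars are means and error bars are SD; Gadd45a is at 68.0 to 81.7 TPM under the knockout label, above its controls, while Gadd45b and Gadd45g lie below theirs.

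The size of the difference moved with the scale more for Gadd45g than for the others. In the authors' deposited table the log2 fold changes were 3.01, −1.01 and −1.83 for Gadd45a, Gadd45b and Gadd45g. In the stabilized log2 values per library that the authors also deposited, by a transform the sources used here do not name, the differences of group means were 2.17, −0.62 and −0.58. On that scale Gadd45g stood at 6.13, 6.07 and 6.07 under the knockout label and at 6.73, 6.56 and 6.72 in the controls, still without overlap. Gadd45g thus differed more than Gadd45b in TPM and by about as much as Gadd45b in the stabilized values.

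The makeup of the family differed between the groups. In the controls Gadd45b was the most abundant member, with 54.6 ± 3.30% of the summed Gadd45 TPM (SD, n = 3), and Gadd45a and Gadd45g followed with 23.9 ± 1.28% and 21.6 ± 2.66%. Gadd45a and Gadd45g did not differ beyond their spread there, since their TPM ranges overlapped. Under the knockout label the order was Gadd45a, Gadd45b, Gadd45g with no overlap between neighbours, and Gadd45a held 85.2 ± 0.985% of the sum. Gadd45b held 12.1 ± 0.861% and Gadd45g 2.7 ± 0.328%. The ratio of Gadd45a to Gadd45b was 7.44, 7.34 and 6.43 under the knockout label and 0.428, 0.400 and 0.489 in the controls. The summed level was 92.2, 95 and 80.8 TPM against 38.8, 38.9 and 40.6 TPM, so the pool of Gadd45 transcripts was larger although 2 of its 3 members were lower. In these bulk samples, fewer cells with a transcript and less transcript per cell cannot be told apart.

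**Figure D2:**
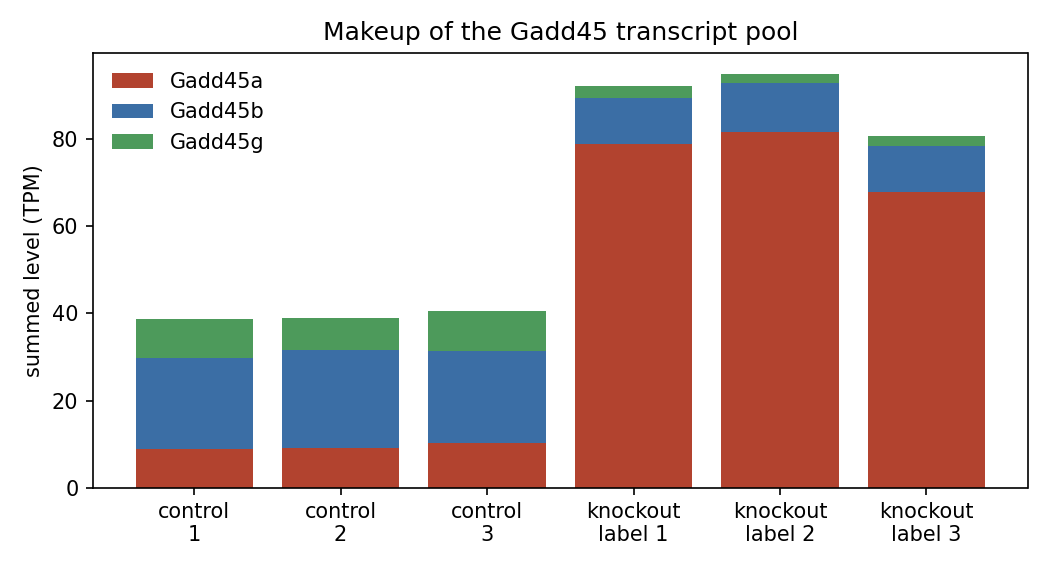
Summed level of the Gadd45 genes in TPM (vertical axis) in each of the 6 libraries, with Gadd45a in red, Gadd45b in blue and Gadd45g in green. Gadd45b is the largest part of the 3 control bars, and Gadd45a makes up 85.2% of the bars labelled knockout on average.

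At the Gadd45a locus the listed level of an overlapping transcript was higher as well. E230016M11Rik (NR_040278), a non-coding RNA on the opposite strand from 67036599 to 67080652 of chromosome 6, starts 0.808 kb from the start of Gadd45a and inside that gene. It measured 12.9, 13.7 and 11.7 TPM under the knockout label and 1.81, 1.88 and 1.72 TPM in the controls. Its listed level was 7.08-fold higher (log2 fold change 2.29, limma adjusted p = 4.36e-08), a result not independent of Gadd45a because of shared bases. Exon 1 of the antisense transcript, from 67036599 to 67036935, covers the whole of exon 3 of Gadd45a, from 67036678 to 67036915. Those 238 shared bases are 19.5% of the Gadd45a transcript and 13.6% of E230016M11Rik. Strand is not kept by the kit that the labels name, so reads of the shared bases cannot be told apart. If reads were spread evenly along each transcript, the shared bases would hold 263 to 327 Gadd45a reads under the knockout label, where E230016M11Rik was given 333 to 405 reads in all, and 32.4 to 33.4 in the controls, where it was given 40 to 50. Conversely, E230016M11Rik would give 45.2 to 54.9 reads to the shared bases under the knockout label, against 1348 to 1674 reads for Gadd45a.

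Few other genes around Gadd45a were expressed highly enough to test. Of 6 tested genes that start within 1.5 Mb of it, 1 was higher and 2 were lower, where limma called 50.1% of all 11257 genes at the threshold of 0.05 on the adjusted p, 26.7% upward and 23.4% downward. The 1 that was higher is E230016M11Rik, whose reads cannot be fully told apart from those of Gadd45a. Il12rb2, an interleukin-12 receptor subunit gene, fell from 5.48 ± 0.410 to 3.73 ± 0.233 TPM (limma adjusted p = 0.000864). Tnip3, which encodes an inhibitor of NF-κB signalling, fell by 0.16 on the log2 scale (limma adjusted p = 0.0160), a call that ended when control replicate 2 (adjusted p = 0.0532) or replicate 1 of the libraries labelled knockout (0.0617) was left out.

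Gadd45b lies in a gene-dense part of chromosome 10 in which lower genes were frequent, a share that is described here and was not tested. Of 98 tested genes within 1.5 Mb, 43 (43.9%) were lower and 9 (9.18%) higher in limma, with a median log2 fold change of −0.12. Over all genes tested, 23.4% were lower and 26.7% higher. On the rest of chromosome 10, 102 of 443 tested genes were lower and 116 higher. Lower genes outnumbered higher ones around Gadd45b under each of the 13 alternatives run, with 31 to 46 lower and 5 to 10 higher. Some of these entries share reads, such as Oaz1 and Oaz1-ps, and neighbours are not independent. The closest genes called were Sppl2b, an intramembrane protease gene, Gng7, a G-protein subunit gene, and the miRNA entry Mir1982, with log2 fold changes of −0.21, −0.32 and −0.48. These 3 calls were weak: Sppl2b was lost without knockout-label replicate 1 (adjusted p = 0.135) or 2 (0.113) and without control replicate 2 (0.0581) or 3 (0.121). Gng7 was lost without knockout-label replicate 1 (0.0860) or 3 (0.0860) and without control replicate 1 (0.0793) or 2 (0.0691), and Mir1982 without knockout-label replicate 2 (0.0534) or control replicate 2 (0.105). Without a filter on low values all 3 calls were lost, with adjusted p = 0.0963, 0.0530 and 0.122, and that of Mir1982 also with limma-voom (0.158) and on the stabilized values (0.165). Mir1982 lies inside Oaz1 and cannot be told apart from it in these reads.

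Gadd45g starts 1134 kb from Nfil3 on chromosome 13, and the pair differed in opposite directions. Nfil3 rose 3.41-fold (log2 fold change 1.74, limma adjusted p = 4.96e-09), while Gadd45g was lower. Between them 2 genes were tested. Syk, the kinase that signals from Fc and C-type lectin receptors, had 16.5 ± 1.48 TPM in the controls and 12.2 ± 0.555 TPM under the knockout label, a fall of 1.35-fold (limma adjusted p = 0.000857). Auh, a mitochondrial enzyme gene of leucine breakdown, was higher by 0.16 on the log2 scale (limma adjusted p = 0.0332). The call of Auh was lost without knockout-label replicate 2 (0.124) and without control replicate 1 (0.0758) or 3 (0.0663), without a filter (0.0650), with upper-quartile scaling (0.0516), with limma-voom (0.0622) and on the stabilized values (0.0669). Of 8 tested genes within 1.5 Mb, 3, with Nfil3 among them, were higher and 2 lower. Over all genes tested, 26.7% were higher and 23.4% lower. Sema4d, the tested gene nearest to Gadd45g, measured 63.7 against 64.9 TPM and did not pass. Spin1, a histone reader gene, rose by 0.25 (limma adjusted p = 0.0171), a call lost without knockout-label replicate 1 (0.0578) or 3 (0.0571) and without a filter on low values (0.0556). The count of 5 called genes fell to 3 without knockout-label replicate 1, 2 or 3 or without control replicate 1. On the rest of chromosome 13, 87 of 398 tested genes were higher and 71 lower.

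**Figure D3:**
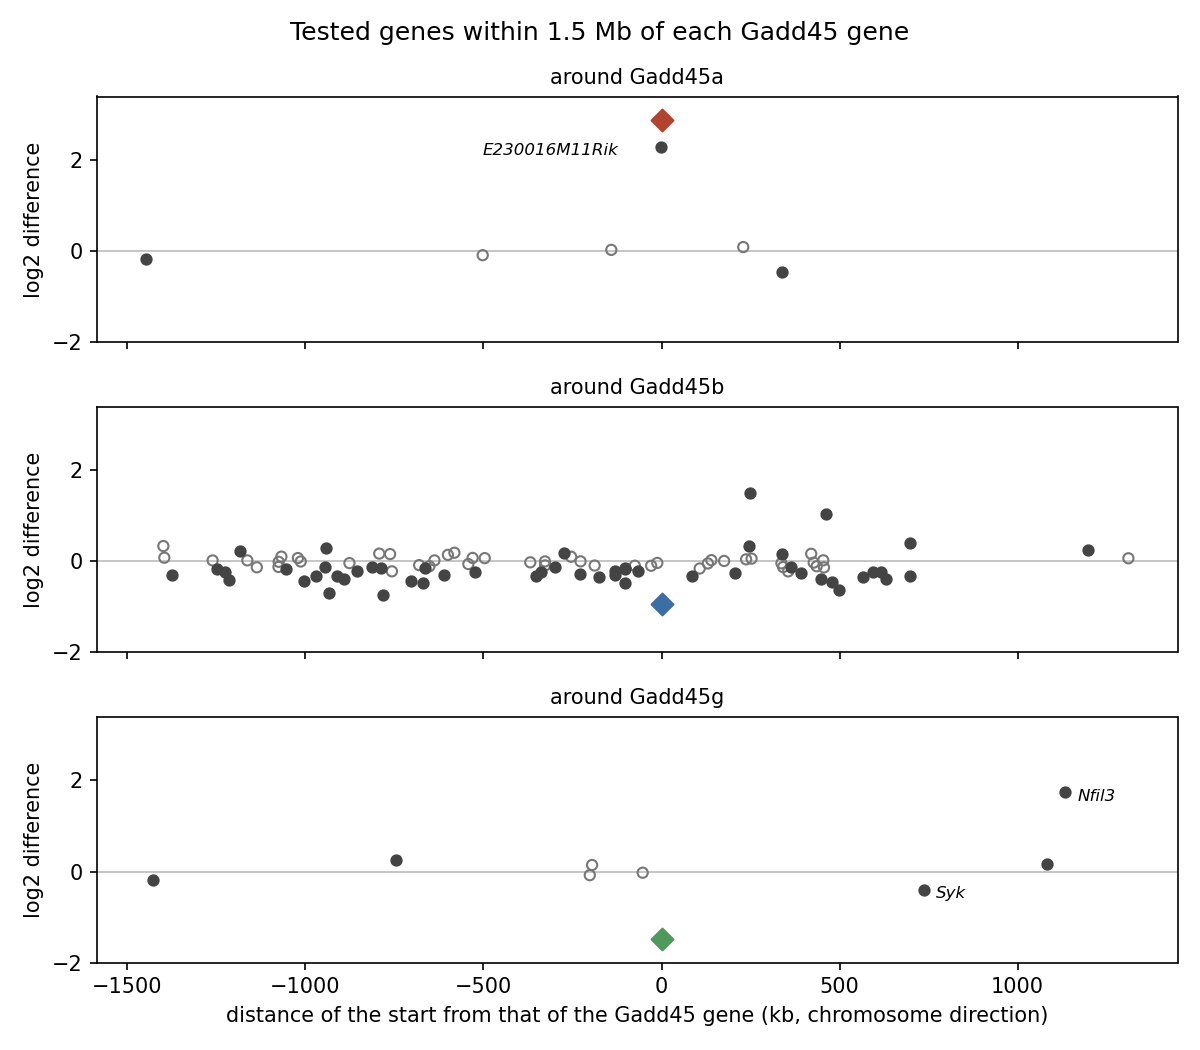
Difference of mean log2(TPM + 1), knockout label minus control (vertical axes), of tested genes against the distance of their start from that of Gadd45a, Gadd45b or Gadd45g in kb (horizontal axis). Filled circles passed in limma, open circles did not, and diamonds are the Gadd45 genes, for which no test is given. E230016M11Rik, some of whose reads may be those of Gadd45a, stands beside that gene at 2.29. Most filled circles around Gadd45b lie below 0.

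The genes most like each member were found by the distance between profiles of log2(TPM + 1) over the 6 libraries, each centred on its mean, as a description. Nearest to Gadd45a were Anpep, Cxcl2, Chac1, Rgs1 and Chpf, at distances of 0.388 to 0.639. Chac1, a glutathione-degrading enzyme gene of the ATF4 response, had 92.5 ± 2.13 TPM under the knockout label and 9.30 ± 0.677 TPM in the controls, close to Gadd45a in both. Nearest to Gadd45b were Pkib, Il18rap, Abcc3, B3gnt2 and Mfng, at smaller distances of 0.0723 to 0.110. Il18rap, an interleukin-18 receptor subunit gene, was at 8.88 ± 0.194 and 17.5 ± 0.522 TPM under the knockout and control labels. Nearest to Gadd45g were Mndal, C1qc, Ifi211, Hs3st1 and Ckap4, at 0.227 to 0.296. Mndal and Ifi211 belong to the interferon-induced Ifi200 group, whose near-identical members can share reads, and C1qc, a complement gene, was at 101.7 ± 2.80 and 294.8 ± 21.4 TPM. All values in this paragraph are SD over n = 3 libraries. The 6 libraries form only 2 groups, so the profiles share that one contrast.

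Transcription factors reported to act on Gadd45 genes include Atf4, Egr1, Trp53, Rela and Myc. On that list 19 members were tested, of which 8, with Nfil3 itself among them, rose, 2 fell and 9 did not pass, where 26.7% of all genes were higher and 23.4% lower. The median log2 fold change was 0.04, where all genes tested had 0.02. Atf4, the stress factor that induces Gadd45a, rose from 358.8 ± 11.4 to 720.9 ± 17.6 TPM (SD, n = 3 each; limma adjusted p = 6.86e-08). Egr1, an immediate early factor, was at 0.538 ± 0.0748 TPM in the controls and 3.35 ± 0.227 TPM under the knockout label. It passed the filter of 1 TPM only through the libraries labelled knockout, with 24, 29 and 20 reads in the controls. Its p-value is therefore not given, although it counts among the 8. Trp53, which encodes p53, measured 112.1 ± 4.17 against 118.9 ± 1.10 TPM and did not pass (limma adjusted p = 0.0909; 0.0449 with upper-quartile scaling). Rela, the p65 subunit of NF-κB, measured 42.7 ± 2.25 against 42.6 ± 1.97 TPM and did not pass (limma adjusted p = 0.985). Myc, reported to repress Gadd45a, rose by 0.27 on the log2 scale (limma adjusted p = 0.0182). The call of Myc was lost without knockout-label replicate 1 (0.0697) or 3 (0.0625) or control replicate 1 (0.0533), and without a filter on low values (0.0619). The list's count of 10 called genes fell to 5 without knockout-label replicate 1 or 3.

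Other stress genes were higher under the knockout label, as Gadd45a was. All 13 tested members of the list of ATF4 and GADD stress genes were higher in limma, against 26.7% of all genes, with a median log2 fold change of 1.00. Ddit3 (CHOP, also named GADD153), a stress factor gene that shares the name but not the sequence family, rose 5.03-fold, from 19.2, 15.7 and 15.4 TPM to 85.4, 90.9 and 76.6 TPM. Ppp1r15a (GADD34), which directs a phosphatase to eIF2α, rose 2.97-fold, from 10.3 ± 0.235 to 30.5 ± 1.26 TPM, and the pseudokinase gene Trib3 rose 3.96-fold (limma adjusted p = 4.46e-08 and 7.16e-09). The smallest rise in the list was that of Asns, asparagine synthetase, at a log2 fold change of 0.27, a gene named after its values were seen. That these genes were high in these libraries was known when the list was written, so the count is a description.

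Of 22 tested p53 targets other than Gadd45a, 9 rose, 6 fell and 7 did not pass, where 26.7% of all genes were higher and 23.4% lower. Their median log2 fold change was 0.11. Bbc3, which encodes the death protein PUMA, rose 2.93-fold to 53.7 ± 4.82 TPM, Gdf15, a stress cytokine gene, rose 3.8-fold to 10.9 ± 0.434 TPM, and Sesn2, which is also on the stress list, rose 3.06-fold (limma adjusted p = 1.24e-07, 1.02e-07 and 7.60e-08). Mdm2, the p53 ubiquitin ligase gene, rose 1.47-fold. Cdkn1a, which encodes the cell cycle inhibitor p21 and is the target most often paired with Gadd45a, fell instead, by 0.23 on the log2 scale (limma adjusted p = 0.000478), with 75.9 ± 1.71 TPM under the knockout label and 89.3 ± 0.895 TPM in the controls. Phlda3 and Sesn1, named after their values were seen, fell by 1.22 and 1.05 on the log2 scale.

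Genes listed as targets of NF-κB and of TGF-β, inducers of Gadd45b, were chosen with earlier results known, and neither list was tested as a set. Whether each listed gene is a target in these cells was not tested. Of 17 tested genes on the NF-κB list, which leaves out Gadd45b, 12 rose, 1 fell and 4 did not pass. Of all genes, 26.7% were higher and 23.4% lower. The median log2 fold change of the list was 0.25. Relb, an NF-κB subunit gene, rose 1.99-fold, from 14.9 ± 0.50 to 29.7 ± 1.28 TPM (limma adjusted p = 5.33e-07). Nfkbib, an inhibitor of NF-κB, rose 1.72-fold, and Cflar, which like Gadd45b is known to protect cells from death by TNF, rose 1.43-fold. The 1 that was lower was Sod2, mitochondrial superoxide dismutase, at −0.14, named after its values were seen. Of 12 tested TGF-β and SMAD targets 3 were higher and 3 lower, near the shares of all genes, and the median log2 fold change of 0.02 was that of all genes. Tgif1, a SMAD corepressor gene, rose 1.72-fold to 57.0 ± 2.33 TPM. Id2, a repressor of bHLH factors, fell by 0.26 on the log2 scale.

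The kinases downstream of the Gadd45 proteins were measured together with their phosphatases. Map3k4, the MTK1 kinase they activate, measured 14.5 ± 0.325 against 13.8 ± 1.18 TPM and did not pass (limma adjusted p = 0.391). Mapk14, the main p38 kinase gene, measured 78.9 ± 3.22 against 82.3 ± 2.96 TPM and did not pass either (adjusted p = 0.282), while Mapk8, which encodes JNK1, rose by 0.27 on the log2 scale (limma adjusted p = 0.0119). Of 20 tested genes of this module 8 rose, 2 fell and 10 did not pass, with a median log2 fold change of 0.07. The share called is that of all genes, 50.1%, with 26.7% higher and 23.4% lower. Those with the smallest adjusted p were the MAP kinase phosphatase genes Dusp1, 1.79-fold higher, and Dusp16, 1.67-fold higher, and the p38δ gene Mapk13, which rose from 1.48 ± 0.306 to 3.69 ± 0.336 TPM (limma adjusted p = 9.63e-07, 9.47e-05 and 0.000107).

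Most genes of the cell cycle list, which holds partners of the Gadd45 proteins and other cell cycle genes, fell by small amounts. The list had 15 tested members, of which 12 fell, 0 rose and 3 did not pass, with 23.4% of all genes lower, and its median log2 fold change was −0.32. At an unadjusted p under 0.05 2 members were higher, the checkpoint kinase genes Chek1 and Wee1, and limma-voom on recovered reads and limma on the stabilized values called both higher. Cdk1 and Ccnb1, the kinase and cyclin of the complex that Gadd45a is known to dissociate, fell from 55.7 ± 2.36 to 42.1 ± 1.49 TPM and from 45.6 ± 1.11 to 36.5 ± 1.45 TPM (limma adjusted p = 7.92e-05 and 0.000256). Aurka, the mitotic kinase Aurora A, fell most in the list, by 0.72 on the log2 scale, and Plk1 and Ccna2 fell by 0.47 and 0.38. Pcna fell by 0.13 (limma adjusted p = 0.0198). The call of Pcna was lost without knockout-label replicate 1 (0.0704) or 3 (0.0666) or control replicate 2 (0.0538), and without a filter on low values (0.0667). Gadd45gip1 (CRIF1), which encodes a protein that binds Gadd45 proteins, fell from 44.6 ± 2.21 to 38.7 ± 1.33 TPM (limma adjusted p = 0.00666).

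Of 18 tested DNA repair and demethylation partners 5 rose, 4 fell and 9 did not pass, shares near the 26.7% higher and 23.4% lower of all genes, so the count says nothing particular of them. Their median log2 fold change was 0.09. Ing1, which encodes a reader of histone methylation that recruits Gadd45a, fell from 37.7 ± 0.934 to 27.8 ± 0.208 TPM (limma adjusted p = 2.07e-05). Apex1, the abasic site endonuclease gene, fell by 0.22 on the log2 scale. Neil2, a DNA glycosylase gene, was listed at 0 in the 3 libraries labelled knockout and at 1.33, 1.04 and 1.15 TPM in the controls. It passed the filter of 1 TPM only through the controls, on 40, 30 and 29 reads. Its p-value is therefore not given, although it counts among the 4 that fell.

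**Figure D4:**
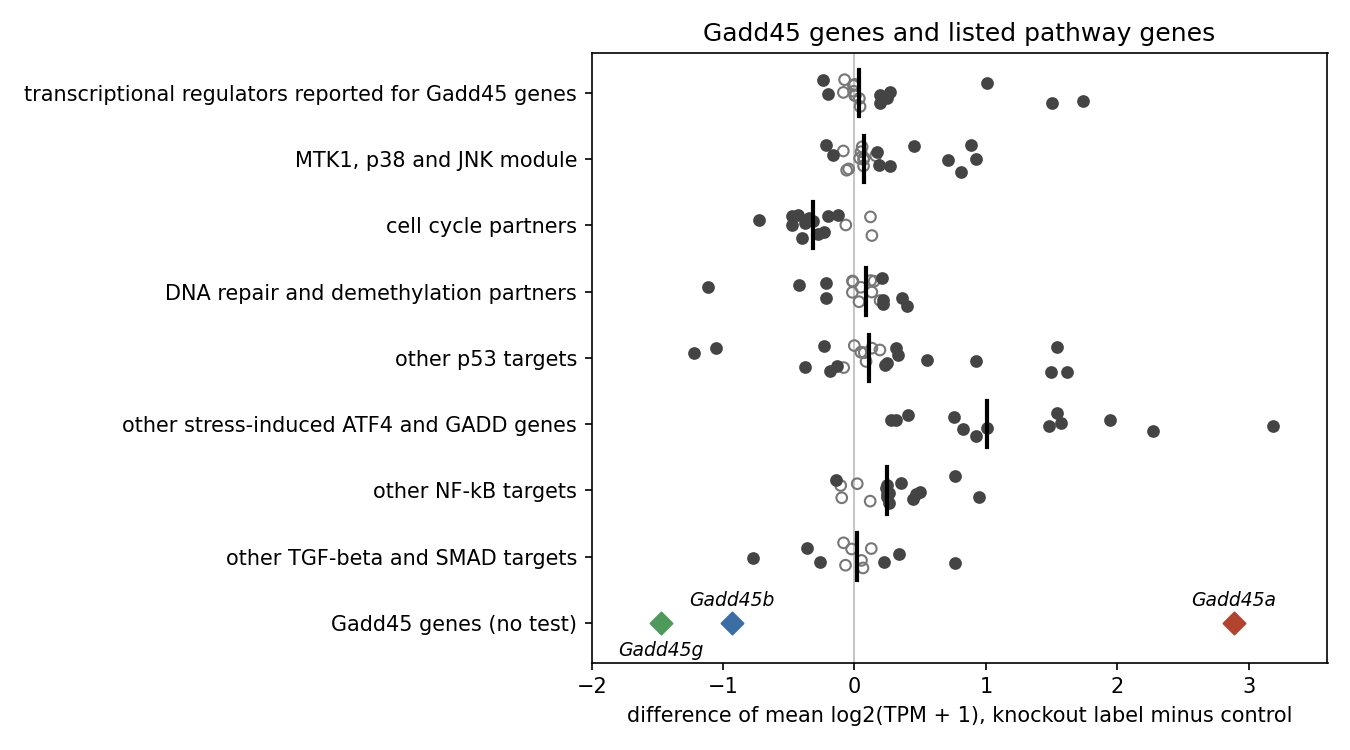
Difference of mean log2(TPM + 1), knockout label minus control (horizontal axis), of the tested genes of 8 lists around the Gadd45 pathway and, at the bottom, of the Gadd45 genes (diamonds). Filled circles passed in limma, open circles did not, and black bars are list medians; the stress list has its median at 1.00 and the cell cycle list at −0.32, and Gadd45b and Gadd45g lie left of 0.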

How the data were processed

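The samples were 3 libraries labelled E4BP4 knockout and 3 labelled control. Per the labels' protocols, messenger RNA was taken by its poly(A) tail for an NEBNext Ultra kit. Tools named in the submitters' processing notes, with no roles, are DESeq2, HOMER 4.11.1, STAR 2.7.5a and bcl2fastq, and the build is mm10. The authors deposited TPM values for 25124 symbols, and a table of stabilized log2 values per library with the log2 fold changes and p-values of their comparison. That comparison is headed WT vs. TG, and TG was read as the knockout label. Library columns named KO were read as the knockout label and those named WT as control, and the M0 in their names is not explained. The sources used here do not say if counting was stranded.

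Genes at 1 TPM or more in at least 3 libraries (11257) were fitted as log2(TPM + 1), a scale on which changes of low genes look smaller. A gene could pass this filter through 1 group alone, as Egr1 and Neil2 did. The fit was limma 3.58.1 (R 4.3.3, mean-variance trend, two-sided, without covariates). Its p-values were adjusted by Benjamini and Hochberg's method over all tested genes and called under 0.05. Differences are knockout label minus control, and folds are ratios of mean TPM. Whole reads came from TPM times length, since 100% of the low values checked lay within 0.1 of whole steps. They served for depth and for limma-voom, scaled by trimmed means. On simulated data for this comparison (11257 genes), 97% of changes of 1 and 87% of changes of 0.5 on the log2 scale were recovered. Only a small part of the genes was changed there, none at low TPM, and the noise was shuffled between genes. The recovery of changes in low genes was therefore not measured. Replicates differed by more than sampling noise (chi-square 1.78 to 5.73 per degree of freedom). Alternatives changed the pseudocount, filter, scaling, input values, replicate block and libraries used.

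The members and lists were chosen with earlier results of these data known. Named genes were the members, 15 genes set by role, the 3 smallest adjusted p per list, the 5 nearest profiles per member (without Gm, Mir and Rik names), the 3 closest called neighbours, and tested genes between Gadd45g and Nfil3. Some genes that the rule names are not reported here. Other names are marked or close the gap in a count. Neighbours start within 1.5 Mb.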

Additional observations from a re-analysis of the deposited data

How the results depend on the processing

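All 3 Gadd45 genes kept their direction under the 13 alternatives run. This is no support for the difference, since they were picked on it. Leaving out a library cannot reverse groups that do not overlap. A pseudocount of 0.1 gave log2 differences of −0.99 for Gadd45b and −1.78 for Gadd45g, −1.01 and −1.82 came from limma-voom run on reads recovered from TPM, and the authors' stabilized values gave 2.17 for Gadd45a, −0.62 for Gadd45b and −0.58 for Gadd45g; a smaller pseudocount shrinks low values less, and the cause of the others was not tested. Without a filter on low values, 6 of the regulators of Gadd45 genes and 3 genes near Gadd45g were called, in place of 10 and 5. With a library left out in turn the regulators gave 5 to 9 calls and the genes near Gadd45g 3 to 4, with fewer samples in each fit. Over the 15 results and 13 alternatives, 180 values stayed within the replicate SD or within 1.5 times the main count and 15 did not. Of 46 named genes, 42 were called, 8 lost their call under at least 1 alternative and 1, Trp53, gained it. Many of the 46 were named because they were called, so nothing is read from the 42. Over all genes tested, 50.1% were called.

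The replicate numbers are shared by both groups, but deviations of same-numbered libraries did not go together (correlations across genes of −0.01, −0.06 and 0.00302). This check showed no pairing, but it cannot show that such libraries shared no culture or batch. With the replicate block 5297 genes were called, against 5639 without it. Depth limits Gadd45g most, with 40 to 45 reads per library labelled knockout.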
